A study of Homo sapiens with 6 samples.

Results

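The genes described here are RB1, the kinases CDK4 and CDK6, the D-type cyclins CCND1, CCND2 and CCND3, the E-type cyclins CCNE1 and CCNE2, the inhibitor CDKN1B and the transcription factor E2F1. They were chosen by name, as genes of the G1/S transition on which CDK4/6 inhibitors act, and each of the 10 names matched 1 row among the 58735 genes of the deposited tables. RNAseq was performed in C4-2B, a human line of castration resistant prostate cancer that descends from LNCaP, and in RC4-2B, which was derived from it by repeated 72 h exposures to the taxane cabazitaxel (CBZ) with recovery between them, from 0.1 nM up to 20 nM over 4 months. RC4-2B is described as a subclone, so it stands for 1 selected population and not for several independent selections. Each line was sequenced as 3 biological replicates, with no drug named for the cultures from which RNA was taken. The labels give 10% FBS for the medium, whereas the methods for RNAseq name both 10% CSS and 10% fetal bovine serum, the same for both lines. In the study both lines were also treated with Palbociclib, Ribociclib and Abemaciclib, and the comparison below asks whether transcripts of the targets of these inhibitors and of their direct partners differed between parental and resistant cells.

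In G1, mitogen signals raise D-type cyclins, which bind and activate CDK4 or CDK6. The active kinases phosphorylate the retinoblastoma protein, encoded by RB1, which otherwise holds E2F factors at their target promoters in a repressed state. Released E2F factors switch on CCNE1, CCNE2, E2F1 itself and many replication genes, and cyclin E with CDK2 completes the phosphorylation. The inhibitor p27, encoded by CDKN1B, binds these cyclin-CDK complexes. Because a CDK4/6 inhibitor acts through the retinoblastoma protein, cells need an intact RB1 to respond to it.

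None of the 10 genes passed the threshold of edgeR's quasi-likelihood test between C4-2B and RC4-2B, an adjusted p of 0.05. Of the 9 that had enough counts to be tested, 0 were higher and 0 were lower, against 1.08% and 0.903% of the 15054 tested genes, or 1.98% in both directions. At an unadjusted p-value under 0.05 the members numbered 0 of 9 in edgeR and 0 of 10 in DESeq2. All tested genes at that level were 21.4% in edgeR and 3349 of 29108 in DESeq2. The estimates were small, with log2 fold changes between -0.26 for E2F1 and 0.27 for RB1 and a median of -0.17, where the median of all tested genes was 0.0063. The 95% intervals reached from -0.70 (lower end for E2F1) to 0.66 (upper end for RB1), so that changes of up to 0.616-fold and 1.58-fold remained within the error. The RNA came from whole cultures, in which fewer cells in a phase of the cycle and less RNA per cell cannot be told apart.

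Library totals were 15707134 to 18052517 counts on genes, so that 3 counts, taken as the floor of detection, stood at 0.170 to 0.188 CPM (counts scaled to the TMM-adjusted library total), a limit for counting error alone. ABCB1, which encodes an efflux pump that exports taxanes, had 0, 1 and 0 counts in the C4-2B libraries and 10742 to 15948 in those of RC4-2B. Among prostate epithelial markers, KRT8, KRT18, EPCAM and FOLH1 had log2 fold changes between -0.05 and 0.25, KLK3 fell by 4.33 on the log2 scale (adjusted p = 0.000154 by edgeR), and KLK2 had a log2 fold change of -0.84 (adjusted p = 0.131). The 9 markers of leukocytes, fibroblasts, endothelium, basal and neuroendocrine cells summed to 2.98 to 3.29 FPKM (fragment counts divided by gene length and library total) in C4-2B and 2.60 to 4.10 FPKM in RC4-2B, almost all of it from COL1A1, VWF and SYP, and KRT5, TP63, PECAM1 and COL1A2 had no count in any library. RC4-2B replicate 2 stood apart. Its log2 difference from the other libraries of its line had a standard deviation of 0.63 and 0.56 across genes, against 0.25 between replicates 1 and 3 and 0.17 to 0.22 within C4-2B. Values for all 9 tested members and for the pathway genes described are therefore given with and without it below.

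**Figure D1:**
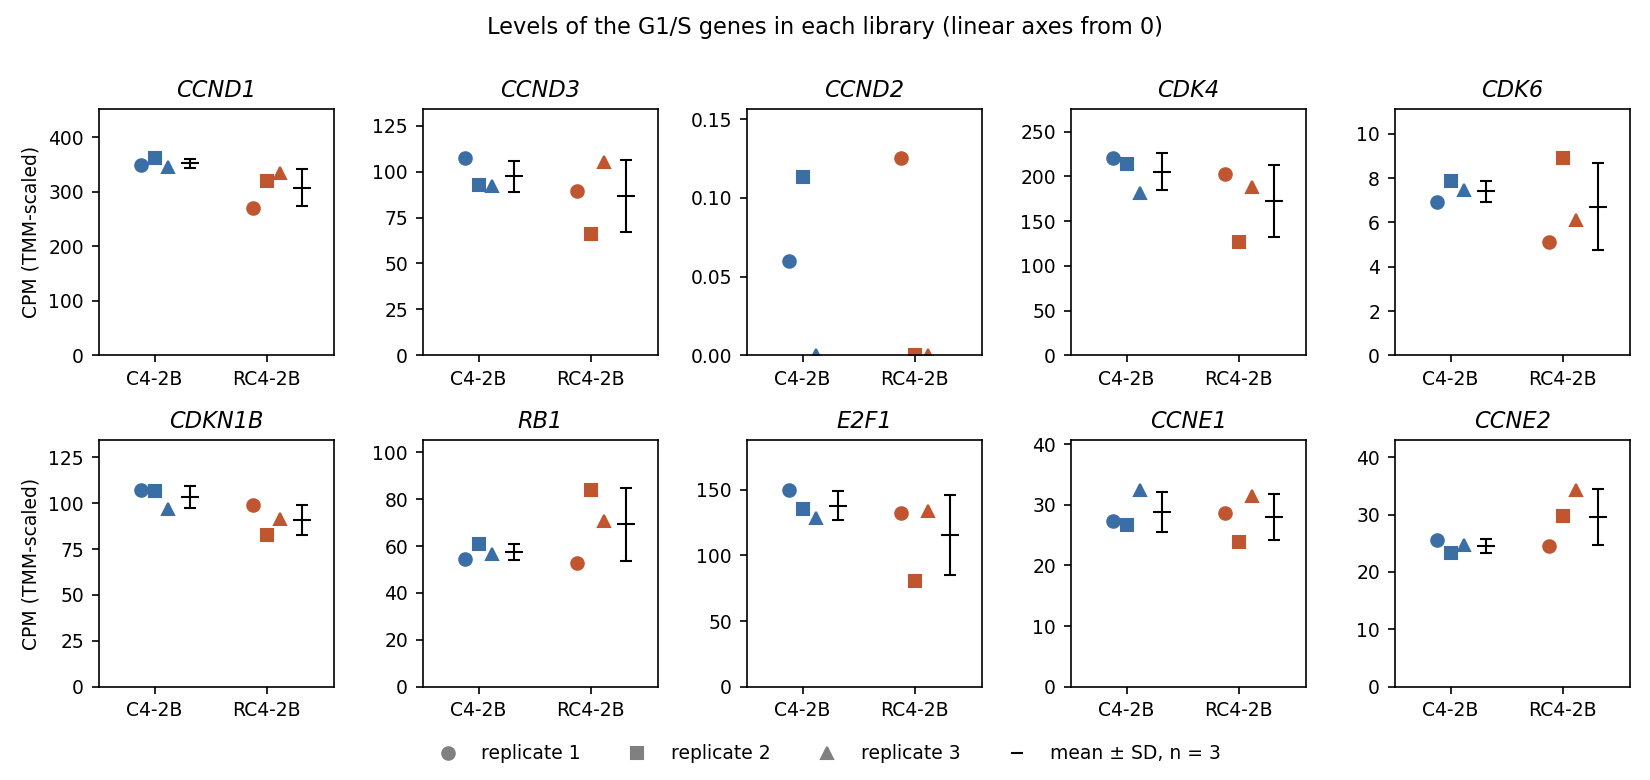
Expression of the 10 genes in each library, as CPM after TMM scaling on linear axes that start at 0, with C4-2B in blue, RC4-2B in orange, a symbol per replicate number, and the mean ± SD (n = 3) in black, which is left out for CCND2. CCND1 is the only panel with readily detected counts in which all RC4-2B points lie below all C4-2B points, and in CDK4, CCND3, CCNE1, CDKN1B and E2F1 the square of RC4-2B replicate 2 is the lowest point.

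The D-type cyclins were represented by CCND1 and CCND3. CCND1 (ENSG00000110092, chromosome 11, 69641087 to 69654474, plus strand, GRCh38), the most abundant of the 10 genes, stood at 349, 362 and 346 CPM in C4-2B replicates 1 to 3 and at 270, 319 and 335 CPM in RC4-2B replicates 1 to 3. Each RC4-2B library lay below each C4-2B library, and RC4-2B replicate 1 was the lowest. Its log2 fold change in RC4-2B was -0.19 (SE, the standard error, 0.11, adjusted p = 0.318 by edgeR), with a 95% interval from -0.45 to 0.06. Of the 9 tested members CCND1 was the only 1 whose groups did not overlap in CPM, whereas 34.1% of all tested genes had groups that did not overlap. Without RC4-2B replicate 2 its log2 fold change was -0.22 (adjusted p = 0.124 by edgeR), and without RC4-2B replicate 1 it was -0.10. CCND1 shares 497 exonic bases with LTO1 on the other strand, and whether reads were counted by strand is not given in the sources used here. LTO1 had no more than 336 counts in any library against at least 4311 for CCND1.

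CCND3 (ENSG00000112576, chromosome 6, 41934933 to 42050357, minus strand) encodes cyclin D3, a close relative with the same kinase partners. It stood at 107, 92.9 and 92.4 CPM in C4-2B and at 89.2, 66.0 and 105 CPM in RC4-2B. The groups overlapped, and RC4-2B replicate 2 was the lowest library. Its log2 fold change was -0.17 (SE 0.17, adjusted p = 0.563 by edgeR), and -0.0033 without RC4-2B replicate 2. CCND2 (ENSG00000118971, chromosome 12, 4273772 to 4305350, plus strand), which encodes cyclin D2, had 1, 2 and 0 counts in C4-2B, against 2, 0 and 0 in RC4-2B. All 6 libraries were under the floor of 3 counts, so CCND2 was not detected at this depth in either line and no fold change is given.

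Because FPKM values are divided by gene length, they allow a rough comparison of the cyclins with each other. The deposited length is 1 value per gene, 4830 bases for CCND1 and 5802 for CCND3. Lengths of the transcripts expressed were not measured, a limit for all comparisons between genes below. CCND1 made up 79.6%, 82.4% and 81.8% of the summed FPKM of the D-type cyclins in C4-2B, against 78.4%, 85.3% and 79.2% in RC4-2B. The mean share was 81.3% ± 1.44 (SD, n = 3) in C4-2B and 81.0% ± 3.78 (SD, n = 3) in RC4-2B, with CCND3 making up almost all of the rest. The shares overlapped, and the difference was not larger than the spread between replicates (exact permutation test, two-sided p = 0.9, with 0.1 as the smallest p that 3 libraries against 3 can give). This was 1 of 4 such comparisons of shares and ratios, and the adjusted p over the 4 was likewise 0.9. The CCND3 share, another of the 4, is nearly the complement of the CCND1 share. The overlap came from RC4-2B replicate 2, as RC4-2B replicates 1 and 3 lay below all C4-2B libraries. Without RC4-2B replicate 2 the difference in share was -2.46 percentage points.

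CDK4 was the main kinase transcript in both lines and CDK6 was scarce. CDK4 (ENSG00000135446, chromosome 12, 57747727 to 57756013, minus strand) stood at 220, 213 and 182 CPM in C4-2B and at 203, 127 and 188 CPM in RC4-2B. The groups overlapped, with RC4-2B replicate 2 well below the other 5 libraries. The log2 fold change of CDK4 was -0.25 (SE 0.18, adjusted p = 0.409 by edgeR), and -0.071 without RC4-2B replicate 2. CDK4 shares 1369 exonic bases with TSPAN31 on the opposite strand, and TSPAN31 had 201 to 263 counts per library against 2228 to 3768 for CDK4. The deposited length of CDK4 is 3168 bases, so its level is uncertain if reads were counted without strand.

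CDK6 (ENSG00000105810, chromosome 7, 92604921 to 92836594, minus strand), the other kinase that binds D-type cyclins, had 116, 139 and 131 counts in C4-2B, against 82, 156 and 104 in RC4-2B. These counts are 6.92, 7.87 and 7.46 CPM in C4-2B and 5.13, 8.89 and 6.11 CPM in RC4-2B. RC4-2B replicate 2 was the highest of the 6 libraries, while RC4-2B replicates 1 and 3 were the lowest, so the estimate of CDK6 depended on which libraries were kept. Its log2 fold change was -0.14 (SE 0.23, adjusted p = 0.718 by edgeR) over all libraries, -0.40 (SE 0.18, adjusted p = 0.162) without RC4-2B replicate 2 and 0.02 (adjusted p = 0.957) without RC4-2B replicate 1. CDK6 lies 4.89 Mb beyond the end of ABCB1 on the same chromosome, and it was not among the genes that rose. In FPKM, CDK4 exceeded CDK6 by a factor of 123, 105 and 94.2 in C4-2B and of 153, 55.3 and 119 in RC4-2B. The log2 ratio of CDK6 to CDK4 was -6.74 ± 0.19 in C4-2B and -6.65 ± 0.76 in RC4-2B (SD, n = 3), a difference of 0.092 that was within the replicate spread (exact permutation test, two-sided p = 0.9, adjusted over the 4 comparisons 0.9). This difference was -0.34 without RC4-2B replicate 2.

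CDKN1B (ENSG00000111276, chromosome 12, 12715058 to 12722371, plus strand), which encodes the inhibitor p27, was among the more abundant members. It stood at 107, 107 and 96.8 CPM in C4-2B and at 98.8, 82.6 and 91.5 CPM in RC4-2B. Only RC4-2B replicate 1 reached into the range of C4-2B. The log2 fold change was -0.19 (SE 0.11, adjusted p = 0.348 by edgeR), with a 95% interval from -0.45 to 0.08, and it was -0.12 without RC4-2B replicate 2.

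RB1 (ENSG00000139687, chromosome 13, 48303726 to 48599436, plus strand), the substrate of CDK4 and CDK6 and the repressor of E2F factors, was expressed in every library of both lines. Its level was 54.5, 61.0 and 56.6 CPM in C4-2B and 52.9, 84.1 and 70.8 CPM in RC4-2B. RC4-2B replicate 1 was the lowest library of all and replicate 2 the highest, so the wider spread lay within the resistant line. The log2 fold change was 0.27 (SE 0.17, adjusted p = 0.353 by edgeR), which is 1.21-fold with a 95% interval from 0.923-fold to 1.58-fold. Without RC4-2B replicate 2 it was 0.11 (adjusted p = 0.571), and without RC4-2B replicate 1 it was 0.44 (adjusted p = 0.0857 by edgeR). The span of RB1 also holds parts of RCBTB2 and LPAR6 on the opposite strand, and these share 0 exonic bases with RB1.

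E2F1 (ENSG00000101412, chromosome 20, 33675683 to 33686404, minus strand) encodes the E2F factor that the retinoblastoma protein is best known to restrain. It stood at 150, 135 and 129 CPM in C4-2B and at 132, 80.2 and 134 CPM in RC4-2B. RC4-2B replicates 1 and 3 lay within the range of C4-2B, and replicate 2 far below it. The log2 fold change of -0.26 (SE 0.19, adjusted p = 0.429 by edgeR) became -0.053 without RC4-2B replicate 2.

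E2F1 is transcribed from a promoter that E2F factors bind themselves. Its sequence is shown because it is the only one among the members' promoter windows with a match to the E2F motif forms searched. Windows of 250 bases before to 50 bases after the start site (RefSeq, GRCh38.p14) were searched on both strands for TTTCCCGC, TTTCGCGC, TTTGCCGC and TTTGGCGC, with overlapping matches allowed. RefSeq windows were matched for 7 of the 10 members, 10 windows in all, and 1 of these 10 held a match. CCND1, CCND2 and CCNE2 had no window. Other forms of the E2F motif were not searched, so a window without a match may still hold a site. The E2F1 window lies at chr20:33686336-33686635 on the minus strand, and the capitals mark the matches, which begin at positions -33 (reverse strand) and -20 (forward strand) from the start site.
E2F1: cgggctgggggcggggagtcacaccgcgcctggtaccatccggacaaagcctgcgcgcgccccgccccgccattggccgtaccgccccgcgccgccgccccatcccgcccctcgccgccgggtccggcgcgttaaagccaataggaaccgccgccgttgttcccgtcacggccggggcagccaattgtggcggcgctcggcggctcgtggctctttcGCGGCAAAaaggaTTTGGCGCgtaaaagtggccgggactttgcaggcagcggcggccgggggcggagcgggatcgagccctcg
A match was present in 1164 of all 35116 windows (3.31%) and in 12 of the 26 windows of the E2F target genes listed below (46.2%). Median GC content was 58.7% over all windows, 68.7% in those of the E2F target genes and 70.5% in those of the members. The part of GC content in these shares was not tested. The RB1 window among the 10 lies at an internal start and not at the 5′ end of the gene.

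The E-type cyclins activate CDK2 and are themselves E2F targets, and neither passed the test. CCNE1 (ENSG00000105173, chromosome 19, 29811898 to 29824308, plus strand) stood at 27.3, 26.6 and 32.5 CPM in C4-2B and at 28.6, 23.8 and 31.4 CPM in RC4-2B. The libraries of both lines were interleaved, and the log2 fold change was -0.04 (SE 0.15, adjusted p = 0.877 by edgeR), with a 95% interval from -0.39 to 0.30. Its sign turned, to 0.060, without RC4-2B replicate 2.

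CCNE2 (ENSG00000175305, chromosome 8, 94879770 to 94896678, minus strand) stood at 25.5, 23.3 and 24.8 CPM in C4-2B and at 24.6, 29.8 and 34.4 CPM in RC4-2B. RC4-2B replicates 2 and 3 were above all C4-2B libraries and replicate 1 lay among them. The log2 fold change was 0.27 (SE 0.15, adjusted p = 0.313 by edgeR), the smallest p-value of the members, and it was likewise 0.27 without RC4-2B replicate 2. Without RC4-2B replicate 1 it was 0.39 (adjusted p = 0.114 by edgeR), and without RC4-2B replicate 3 it was 0.15. CCNE2 shares 1629 exonic bases with INTS8 on the opposite strand, and INTS8 had more counts than CCNE2 in every library (1173 to 1911), so the level of CCNE2 is uncertain if reads were counted without strand. In FPKM, CCNE1 exceeded CCNE2 by a factor of 1.84, 1.97 and 2.26 in C4-2B and of 2.00, 1.38 and 1.58 in RC4-2B. The log2 ratio of CCNE2 to CCNE1 was -1.01 ± 0.15 and -0.71 ± 0.27 (SD, n = 3), and this difference of 0.31 was not distinguishable from the spread (exact permutation test, two-sided p = 0.3, adjusted over the 4 comparisons 0.9). The difference was 0.18 without RC4-2B replicate 2.

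Set in order by mean FPKM, the members of C4-2B ran from CCND1 (65.3 ± 1.19), CDK4 (58.0 ± 5.53), E2F1 (49.4 ± 3.83) and CDKN1B (33.0 ± 1.71) through CCND3 (15.1 ± 1.27), CCNE1 (10.1 ± 1.2), RB1 (7.96 ± 0.44) and CCNE2 (5.00 ± 0.25) to CDK6 (0.54 ± 0.034; SD, n = 3). The order of the means was the same in RC4-2B, at 58.1 ± 7.12 for CCND1, 49.4 ± 10.5 for CDK4, 41.8 ± 10.3 for E2F1, 29.5 ± 1.97 for CDKN1B, 13.6 ± 2.88 for CCND3, 9.97 ± 1.2 for CCNE1, 9.82 ± 2.43 for RB1, 6.14 ± 1.05 for CCNE2 and 0.50 ± 0.16 for CDK6. In C4-2B the ranges of neighbours overlapped between CDK4 and E2F1 alone. In RC4-2B they overlapped at 5 steps, namely between CCND1 and CDK4, CDK4 and E2F1, E2F1 and CDKN1B, CCND3 and CCNE1, and CCNE1 and RB1. CCND1 was above CDK4 in 5 of 6 libraries, and CCNE1 above RB1 in 5 of 6. Among all tested genes, by mean FPKM, CCND1, CDK4, E2F1 and CDKN1B stood at percentiles 90.7 (CDKN1B) to 95.7 (CCND1), whereas CDK6 stood at percentile 14.1.

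**Figure D2:**
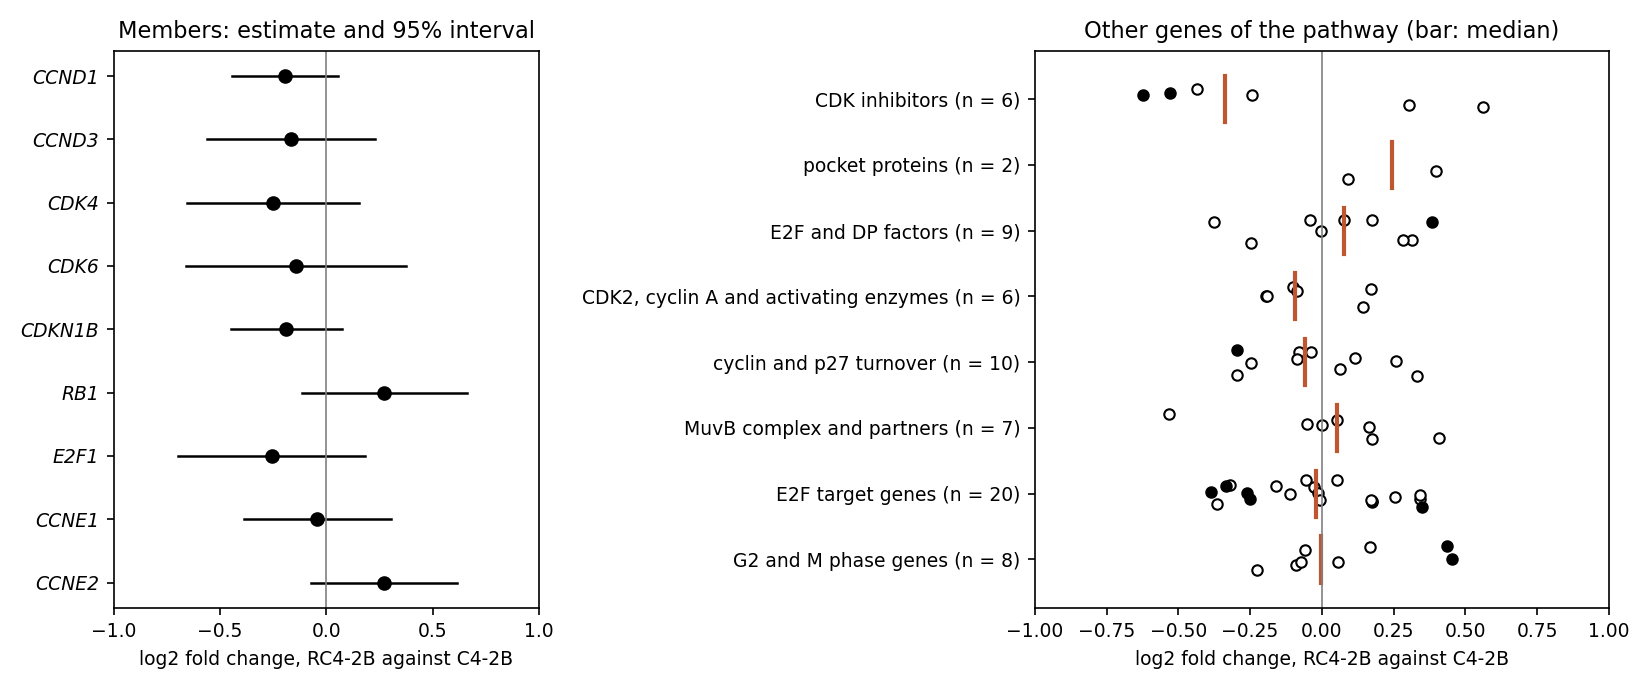
Left, the log2 fold change of RC4-2B against C4-2B for the 9 tested members, with the 95% interval from edgeR's fit as a line. Right, the same estimate for each tested gene of the other pathway lists, filled where the unadjusted p-value was under 0.05, with the median of each list as an orange bar. All 9 intervals on the left include 0, and the points on the right lie between -0.62 and 0.56.

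The wider G1/S pathway was likewise without a call. Of 69 further genes in 8 lists, 68 were tested, and 0 were higher and 0 lower at that threshold by edgeR. At an unadjusted p-value under 0.05 there were 11 of the 68 (16.2%) in edgeR, against 21.4% of all tested genes. In DESeq2 they were 9 of 69, against 3349 of 29108 tested genes. The median log2 fold change of the 68 was -0.010.

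The 6 CDK inhibitors other than CDKN1B had a median log2 fold change of -0.34 over all libraries, with 2 estimates above 0. The median was -0.054 without RC4-2B replicate 2, with 3 estimates above 0, and -0.12 with the GC correction described below. CDKN1A, which encodes the p53-induced inhibitor p21, stood at 139, 148 and 185 CPM in C4-2B and at 137, 69.4 and 100 CPM in RC4-2B. Its groups were separated only narrowly, and the log2 fold change was -0.62 (SE 0.23, adjusted p = 0.183 by edgeR), or -0.41 without RC4-2B replicate 2 (adjusted p = 0.0516). CDKN2C had a log2 fold change of -0.53 (adjusted p = 0.184 by edgeR), and -0.46 without RC4-2B replicate 2 (adjusted p = 0.0772). CDKN2A, whose locus encodes the CDK4/6 inhibitor p16 and the unrelated protein ARF, was detected at 35.1 to 46.8 CPM in C4-2B and 18.9 to 44.7 CPM in RC4-2B. The log2 fold change of CDKN2A was -0.24, and its sign turned, to 0.047, without RC4-2B replicate 2. The other pocket proteins, RBL1 and RBL2, had log2 fold changes of 0.40 and 0.09, with an adjusted p of 0.242 for RBL1 in edgeR's test. They had 0.21 and -0.036 without RC4-2B replicate 2, so that the sign turned for RBL2.

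Among the E2F and DP factors, 5 of 9 estimates were above 0. TFDP2, a DNA-binding partner of E2F factors, stood at 58.0, 58.9 and 60.6 CPM in C4-2B and at 69.0, 87.2 and 75.4 CPM in RC4-2B. All its RC4-2B libraries were above those of C4-2B, with a log2 fold change of 0.38 (SE 0.12, adjusted p = 0.139 by edgeR). Of CDK2, the A-type cyclins and the activating enzymes, 6 of 7 were tested and the smallest p-value was that of CDC25A, a phosphatase that activates CDK2, with a log2 fold change of -0.19 (adjusted p = 0.319), or -0.18 without RC4-2B replicate 2. In the list for the turnover of cyclins and p27 it was that of RBX1, the RING subunit of cullin ligases, with -0.29 (adjusted p = 0.177 by edgeR) and -0.27 without that library. Among the genes of the MuvB complex and its partners it was that of LIN54, with 0.41 (adjusted p = 0.245 by edgeR) and 0.23 without RC4-2B replicate 2.

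The 20 E2F target genes, most of them replication genes, had a median log2 fold change of -0.021, with 8 estimates above 0 and 12 below. Their summed level was 1031 to 1188 FPKM in C4-2B and 1122 to 1163 FPKM in RC4-2B, so the libraries of RC4-2B lay within the range of C4-2B. The sum weighs abundant genes most, with TK1 alone at a mean of 212 FPKM in C4-2B and 243 FPKM in RC4-2B. POLA1, the catalytic subunit of DNA polymerase alpha, had the smallest p-value of the list, with 60.4, 63.5 and 63.9 CPM in C4-2B and 42.02, 53.8 and 47.6 CPM in RC4-2B, and its log2 fold change was -0.39 (SE 0.12, adjusted p = 0.144 by edgeR). The 8 G2 and M phase genes had a median of -0.0022 and 402.6 to 460 summed FPKM in C4-2B against 359 to 470.4 in RC4-2B. The smallest p-value there was that of MKI67, the gene of the proliferation antigen Ki-67, at 187, 229 and 188 CPM in C4-2B and 241, 334 and 250.9 CPM in RC4-2B (log2 fold change 0.45, SE 0.15, adjusted p = 0.158 by edgeR), and its log2 fold change without RC4-2B replicate 2 was 0.29 (adjusted p = 0.0523).

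Without RC4-2B replicate 2, 12.5% of 15378 tested genes passed the adjusted threshold and 27.5% the unadjusted one in edgeR. The members were still 0 of 9 at the adjusted threshold, and 2 of 9, CCND1 and CDK6, at the unadjusted one. Of the 68 pathway genes 4 then passed, with CDC6, which loads the replicative helicase, TFDP2 and E2F6 higher (log2 fold changes of 0.29, 0.29 and 0.41) and POLA1 lower (-0.48, adjusted p = 0.00391 by edgeR). Over all libraries the log2 fold changes of CDC6 and E2F6 were 0.35 and 0.28. CDC6, E2F6, TFDP2 and POLA1 are named here because they passed. CDC6 lies on chromosome 17, whose 704 well-expressed genes had a median log2 fold change of 0.17 over all libraries, against 0.084 for chromosome 3 (TFDP2), 0.087 for chromosome 2 (E2F6) and 0.035 for chromosome X (POLA1). The part of these chromosome medians in the values was not tested.

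The levels of most members in RC4-2B replicate 2 went with the GC content of their transcripts. Relative to the mean of replicates 1 and 3, CDK6 and RB1, whose longest transcripts have 39.7% and 37.1% GC, were higher in replicate 2 by 0.67 and 0.46 on the log2 scale. E2F1, CDK4 and CCND3, at 61.6%, 52.0% and 56.2% GC, had log2 differences of -0.73, -0.62 and -0.55. CCNE2 stood off this trend, as it had the lowest GC content of the members, 36.9%, and a difference of only 0.037. CDKN1B did so too, with 42.7% GC and a difference of -0.20. CCND1 and CCNE1, at 50.3% and 51.7% GC, had differences of 0.088 and -0.33. Over the 9 tested members, Pearson's r between GC content and this difference was -0.83 and Spearman's rho was -0.83, and over 14987 tested genes the rho was -0.66. The points come from the same 3 libraries and are not independent. Among well-expressed genes, the log2 difference between RC4-2B replicates 1 and 3 also went with GC content, with a rho of -0.38. Within C4-2B the rho was -0.30 and -0.27 for replicate 1 against replicates 2 and 3, and -0.035 between replicates 2 and 3. Fits without RC4-2B replicate 2 therefore still hold some GC trend. The GC content of the tested genes had a median of 48.2%, and the members ranged from 36.9% (CCNE2) to 61.6% (E2F1).

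**Figure D3:**
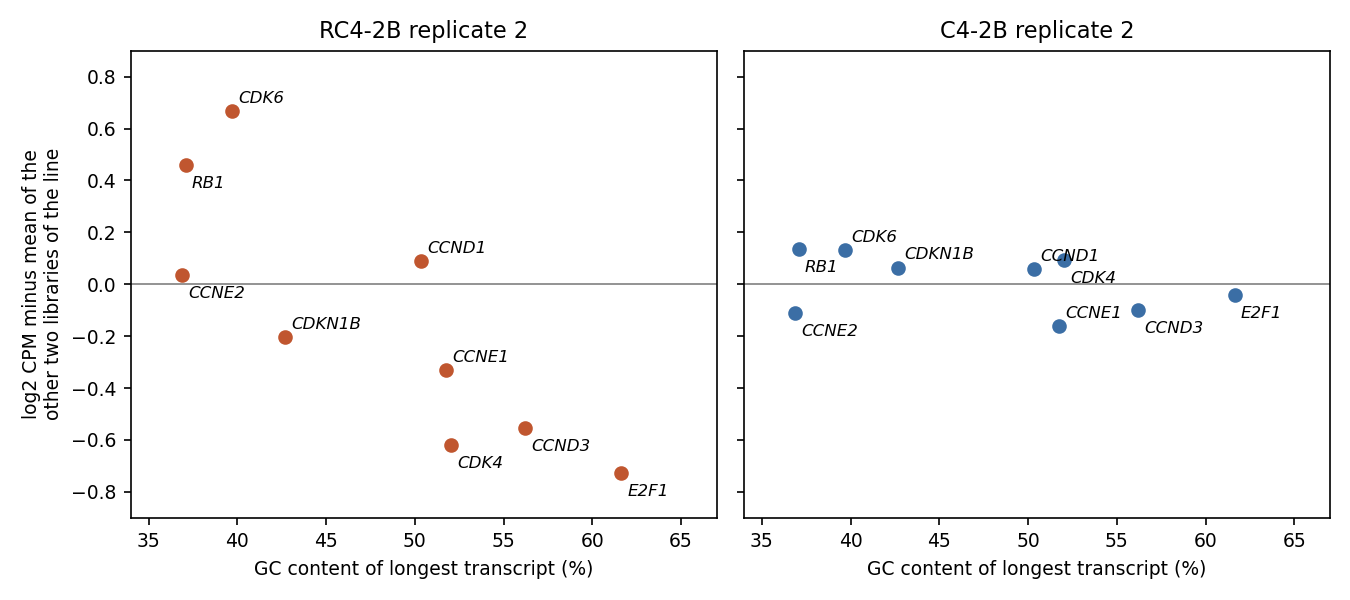
GC content of the longest transcript of each tested member (x axis, percent) against its log2 CPM in 1 library minus the mean of the other two libraries of the same line (y axis), for RC4-2B replicate 2 on the left and C4-2B replicate 2 on the right. On the left the low-GC genes CDK6 and RB1 lie at 0.67 and 0.46, CCNE2 near 0 at 0.037 and E2F1 at -0.73, and on the right all members lie between -0.16 and 0.14.

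When a smooth trend on GC content was taken out of each library, the estimates of the members shifted without a call. RB1 went down from 0.27 to 0.05 and CCNE2 from 0.27 to 0.07 on the log2 scale, and E2F1 went up from -0.26 to 0.06. CDK6 went down from -0.14 to -0.34 (adjusted p = 0.232 by edgeR) and CDKN1B from -0.19 to -0.31 (adjusted p = 0.166). CCND1 stayed at -0.19. The correction also takes out any mean GC trend between the lines. With the correction and without RC4-2B replicate 2, a combination chosen after the spread of that library had been seen, CDK6 had a log2 fold change of -0.47 (SE 0.17) and the smallest adjusted p-value of the members, 0.0818 in edgeR's test. In that fit RB1 had 0.03, CCND3 0.04, CCNE1 0.06 and E2F1 0.06. Of the 68 pathway genes, 3 passed with the GC correction over all libraries, against 1147 of 15054 tested genes. They were POLA1 (-0.55), RBX1 (-0.42, adjusted p = 0.0485 by edgeR) and TYMS (-0.37, adjusted p = 0.046), which encodes thymidylate synthase, all lower. The same 3 also passed as lower with the correction and without RC4-2B replicate 2, where 2050 of 15378 tested genes passed. TK1, which encodes thymidine kinase, and E2F6 passed as higher in the latter fit. TK1 and MKI67 passed as higher when the replicate number was added to the correction, and CDKN1A passed as lower when no filter was applied. Tested genes passing numbered 1206 of 15054 with that addition and 1250 of 29109 with no filter. Without the correction TYMS had log2 fold changes of -0.33 over all libraries and -0.30 without RC4-2B replicate 2, and TK1 0.17 and 0.22. TYMS lies on chromosome 18 and TK1 on chromosome 17. Well-expressed genes there had median log2 fold changes of -0.31 and 0.26 with the correction over all libraries. The part of these medians in the values was not tested.

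**Figure D4:**
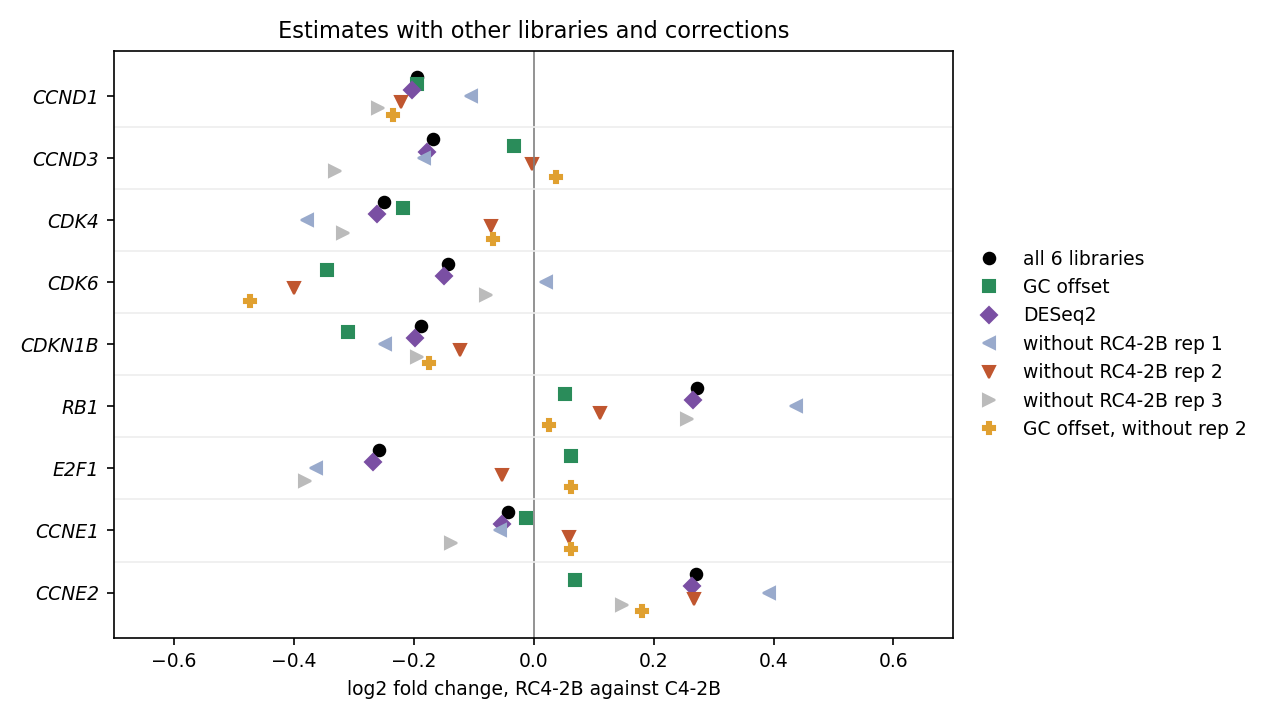
Log2 fold change of RC4-2B against C4-2B (x axis) for the 9 tested members under 7 fits, each with its own symbol. CCND1, CDK4 and CDKN1B stay below 0 in all 7 fits and RB1 and CCNE2 above 0, whereas E2F1, CCND3, CCNE1 and CDK6 have estimates on both sides of 0.

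The genes most like RB1 over the 6 libraries, by Pearson's r of log2 CPM among 12566 genes whose average log2 CPM reached 1, were STX12 (r = 0.997), LYRM7 (r = 0.996) and DDHD2 (r = 0.994). A likeness of this kind was common, as 260 genes had an r over 0.95 with RB1. For CCNE2, the member with the smallest p-value, they were PKDREJ (r = 0.998), NAP1L3 (r = 0.983) and MARCKS (r = 0.977), and 16 genes had an r over 0.95. All of these values come from the same 6 libraries.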

How the data were processed

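Total RNA of 3 C4-2B and 3 RC4-2B cultures was sequenced. STAR was the aligner and GRCh38 the genome. The authors deposited whole-number read counts per gene, without normalization, and FPKM values. The FPKM values deposited equal the counts divided by gene length and by 1 total per library (17878222 to 19817304). The counting program, its use of strand and of multiply mapped reads, and the annotation release are not given in the sources used here. Columns were matched to samples by the names in the labels. Genes and lists were chosen with earlier results of these data known.

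The model of the counts was made with edgeR 4.0.16 under R 4.3.3 (TMM scaling, filterByExpr with its minimum of 10 counts, 15054 genes kept, glmQLFit and glmQLFTest with the line as the only term, Benjamini-Hochberg adjustment over all tested genes, threshold 0.05). The SE of a log2 fold change is its absolute value over the square root of F, and 95% intervals use the t distribution with edgeR's total degrees of freedom. Shares and ratios of FPKM were compared by exact permutation over libraries (scipy 1.17.1). Named genes are the 10 members, the pathway gene with the smallest p-value in each list, and the 3 genes most correlated with RB1 and with the member of smallest p-value. CDKN2A, CDKN2C, RBL2, CDC6, E2F6, TYMS, TK1 and the genes sharing exons with members were chosen after their values were seen. Some of the listed marker genes are not reported here.

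Alternatives were DESeq2 1.42.0, RLE scaling, no filter beyond 1 count, the replicate number as a block, a lowess trend (span 0.2) of each library's log2 CPM deviation on the GC content of the longest GENCODE 44 transcript (known for 99.6% of tested genes) as an offset, both together, limma 3.58.1 on log2(FPKM + 1) and log2(FPKM + 0.1), and each library left out. The fits were tested on simulated data with changes far larger than the members' estimates and without a GC trend or a deviant library. That test does not cover changes as small as those of the members. Pairs of libraries within a line differed by 3.17 to 58.7 in chi-square per gene, so no library was a copy of another. Exon overlaps were taken from GENCODE 44 (GRCh38).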

Additional observations from a re-analysis of the deposited data

How the results depend on the processing

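The number of members called was 0 under all 15 alternatives, and of 133 member estimates 125 kept the direction reported. The opposite sign appeared for E2F1 with the GC offset (0.062), with the GC offset and the replicate block (0.063) and with the GC offset without RC4-2B replicate 2 (0.063), for CCNE1 (0.062) and CCND3 (0.038) in the last of these fits, and when single libraries were left out, where CDK6 ranged from -0.40 to 0.020 and CCNE1 from -0.14 to 0.060. CDK6 and CCND2 were below the FPKM filter of the limma fits. With single libraries left out, the difference in CCND1 share ranged from -2.46 to 1.01 percentage points, that in CCND3 share from -1.002 to 2.45, and that in the log2 ratio of CDK6 to CDK4 from -0.34 to 0.40.

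Pathway genes called higher were 2 with the GC offset and the replicate block, 2 with the GC offset without RC4-2B replicate 2, and 0 to 3 with single libraries left out. Pathway genes called lower were 1 with no filter, 3 with the GC offset, 2 with the GC offset and the block, 3 with the GC offset without RC4-2B replicate 2, and 0 to 1 with single libraries left out. The causes were not tested.

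All genes called numbered 298 in the reported fit, 902 with DESeq2, 1250 with no filter, 129 with the replicate block, 1147 with the GC offset, 1206 with the GC offset and the block, 104 and 86 with limma at pseudocounts of 1 and 0.1, 2050 with the GC offset without RC4-2B replicate 2, and 44 to 1925 with single libraries left out (1925 without RC4-2B replicate 2). Libraries with the same replicate number did not all deviate together (correlations of 0.31, 0.18 and -0.073), so the numbers were not taken as pairs, and the block changed no call among the members.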
